A study of Mus musculus with 9 samples.

Results

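Expression of 8 genes that mark blood vessel endothelium (*Pecam1*, *Cdh5*, *Kdr*, *Flt1*, *Tek*, *Tie1*, *Emcn* and *Vwf*), of the peptide ligand *Apln* and of its receptor *Aplnr* was measured in regenerating mouse muscle. The 10 genes were taken by name from a count table of 54532 Ensembl genes, and all 10 had counts in every library and passed the filter on low counts. They were selected on their levels in these 9 libraries, which were already known, so their values, and the counts of them that passed a threshold, are given as a description and support nothing by themselves. Tibialis anterior muscle of C57/BL6J mice was injured in every group with barium chloride (BaCl2), which kills muscle fibres and leaves regeneration to follow. The young PBS group (4 months of age) and the old PBS group (24 months) then received 3 injections of PBS, and the old rMETRNL group (24 months) received 3 injections of recombinant METRNL protein, a secreted factor, in its place. Each group held 3 libraries, numbered 1, 2 and 3 in the young PBS and old rMETRNL groups and 2, 3 and 4 in the old PBS group. The sample labels describe digested muscle strained to a suspension of cells and the series description gives day 4 after injury, whereas the study's text gives whole muscle at day 8. Both comparisons with old PBS share the same 3 old PBS libraries.

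Endothelial cells line every vessel and are held together by junction proteins such as those of *Cdh5* and *Pecam1*. They receive growth signals through the VEGF receptors of *Kdr* and *Flt1* and stabilising signals through the angiopoietin receptors of the Tie family. Apelin, the product of *Apln*, is made largely by sprouting endothelium and acts on a G protein-coupled receptor, the product of *Aplnr*, which is found on venous and growing endothelium and on some other cells. Injured muscle rebuilds its capillaries while its fibres regrow.

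The libraries held 16238700 to 22522560 counts, with counts on 21470 to 23950 genes. Levels are counts scaled to the size of the library with edgeR's TMM factors (CPM). A count of 3 corresponded to 0.131 to 0.202 CPM, and every value of the 10 genes was well above it, the lowest being 82 counts. Transcripts of muscle fibres led these libraries, with a summed level of 5 fibre genes between 63121 and 106465 CPM. Both ends of this range were in old PBS, at 102309, 63121 and 106465 CPM in old PBS 2 to 4. The sum was 85053 to 97379 CPM in young PBS and 82145 to 87348 CPM in old rMETRNL. The part of the fibre transcripts in the values of the 10 genes was not tested. The old PBS libraries stood apart from the other 6 in transcripts of other organs. The summed level of 5 brain genes was 43.6 to 101.7 CPM in old PBS and at most 0.943 CPM elsewhere, and that of 5 liver genes was 4.34 to 79.2 CPM in old PBS and at most 0.482 CPM elsewhere. All 3 old PBS libraries carried these transcripts, so that leaving out a library could not remove them from a comparison with old PBS. Old rMETRNL against young PBS is the comparison without them. Their part in the values below was not tested.

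*Aplnr* had the widest range of the 10 genes as a ratio, 9.08-fold between the lowest and the highest library. By the fitted values, old PBS was 2.50-fold below young PBS, and old rMETRNL was 2.91-fold above old PBS. Of the 8 endothelial genes, *Pecam1*, *Cdh5*, *Kdr*, *Tek*, *Tie1* and *Emcn* had their lowest group mean in old PBS, by smaller amounts, whereas *Flt1* and *Vwf* had their highest. None of the 10 passed edgeR's quasi-likelihood test after Benjamini-Hochberg adjustment over all genes (threshold 0.05) in old PBS against young PBS, old rMETRNL against old PBS or old rMETRNL against young PBS, where 0.0643, 0.108 and 0.0% of all genes tested passed. In the same order, 2, 4 and 0 of the 10 had an unadjusted p under 0.05, against 5.91, 8.07 and 2.41% of all genes, and 0, 1 and 0 passed by DESeq2, against 1.42, 1.78 and 0.0%. RNA of a whole tissue or a mixed suspension cannot tell fewer endothelial cells from less RNA per endothelial cell.

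**Figure D1:**
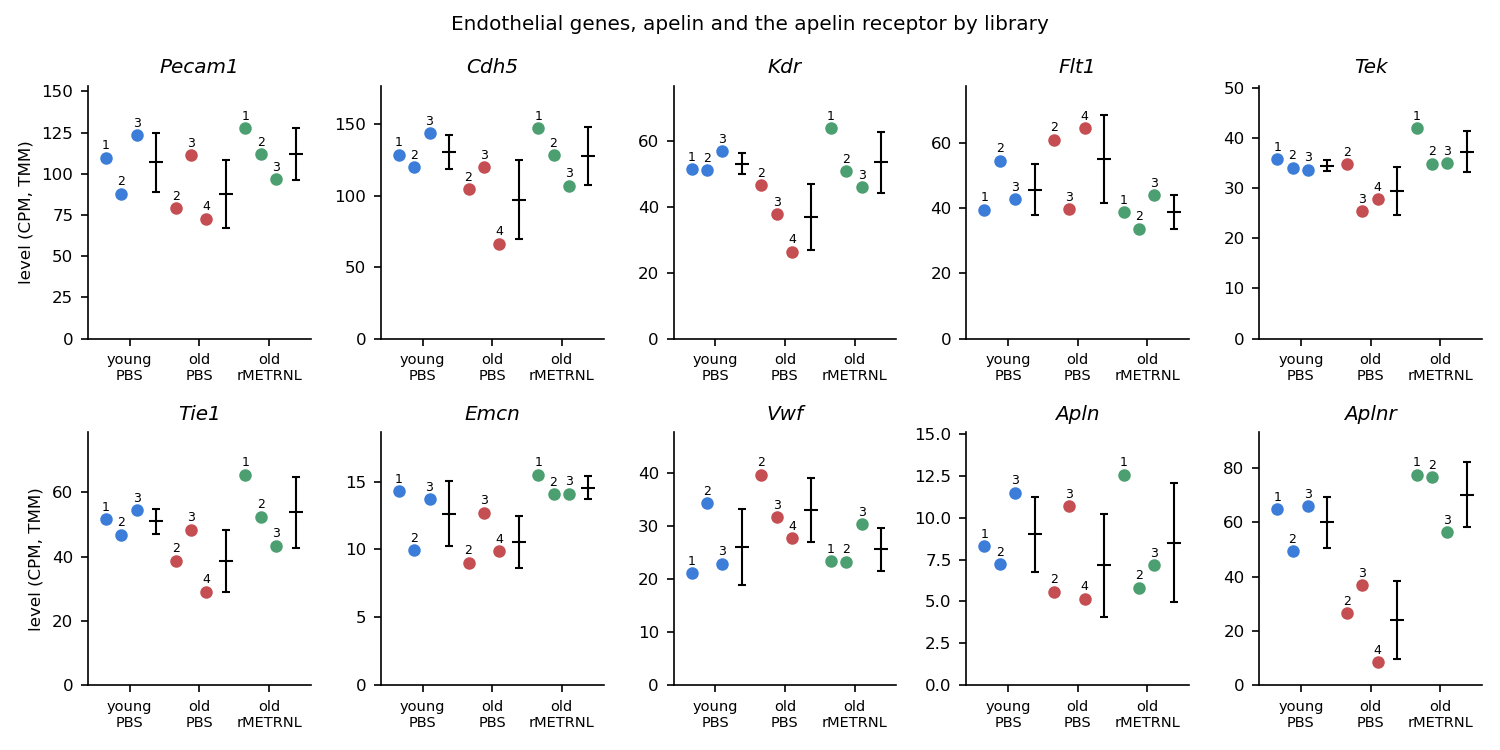
Level of each gene (vertical axis, CPM with TMM factors, from 0) in each library, as 1 point per library with its number, and the group mean with SD as a bar beside the 3 points (n = 3). *Aplnr* in the old PBS libraries lies between 8.55 and 36.9 CPM, under all 6 other libraries, while most other genes overlap between groups.

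The junction and surface genes came first. *Pecam1* (PECAM-1 or CD31, an adhesion molecule at endothelial contacts, also on platelets and leukocytes) was at 109.8, 88.0 and 123.5 CPM in young PBS 1 to 3. It was at 79.3, 111.2 and 72.8 CPM in old PBS 2 to 4, and at 127.7, 111.8 and 96.6 CPM in old rMETRNL 1 to 3. Old PBS 2 and old PBS 4 were the lowest libraries, and old PBS 3 lay among the libraries of the other groups. The fitted log2 fold change was -0.29 ± 0.22 (SE) for old PBS against young PBS, 0.35 ± 0.21 for old rMETRNL against old PBS and 0.07 ± 0.15 for old rMETRNL against young PBS.

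*Cdh5* (VE-cadherin, the adherens junction protein of endothelium) was at 128.7, 119.96 and 143.7 CPM in young PBS 1 to 3. It was at 104.8, 120.2 and 66.3 CPM in old PBS 2 to 4, and at 147.4, 128.5 and 107.0 CPM in old rMETRNL 1 to 3. Old PBS 4 was the lowest library by far and old PBS 3 was level with young PBS 2, so the groups overlapped. The log2 fold change was -0.43 ± 0.24 for old PBS against young PBS, with values between -0.62 (without old PBS 3) and -0.22 (without old PBS 4). It was 0.39 ± 0.24 for old rMETRNL against old PBS, with values between 0.17 (without old PBS 4) and 0.58 (without old PBS 3).

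*Emcn* (endomucin, a sialomucin of capillary and venous endothelium) had levels of 14.3, 9.93 and 13.7 CPM in young PBS 1 to 3, 9.02, 12.7 and 9.87 CPM in old PBS 2 to 4, and 15.5, 14.1 and 14.1 CPM in old rMETRNL 1 to 3. All 3 old rMETRNL libraries were above all 3 old PBS libraries, while old PBS and young PBS overlapped. Fitted, the log2 fold change was -0.26 ± 0.22 for old PBS against young PBS and 0.46 ± 0.19 for old rMETRNL against old PBS.

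The fitted values of the VEGF receptors differed in sign. *Kdr* (VEGFR2, the main signalling receptor for VEGF-A) was at 51.3, 51.1 and 56.7 CPM in young PBS 1 to 3, at 46.5, 37.7 and 26.3 CPM in old PBS 2 to 4, and at 63.8, 50.7 and 45.9 CPM in old rMETRNL 1 to 3. All 3 old PBS libraries were below all 3 young PBS libraries, and old PBS 2 was just above old rMETRNL 3. On the log2 scale the fitted difference was -0.53 ± 0.21 for old PBS against young PBS, with a range of -0.73 to -0.33 when each library was left out in turn. It was 0.53 ± 0.23 for old rMETRNL against old PBS (0.33 to 0.74) and 0.01 ± 0.13 for old rMETRNL against young PBS.

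*Flt1* (VEGFR1, which binds VEGF tightly and also has a secreted form that traps it) was at 39.6, 54.6 and 42.9 CPM in young PBS 1 to 3, at 61.0, 39.7 and 64.6 CPM in old PBS 2 to 4, and at 38.8, 33.8 and 43.96 CPM in old rMETRNL 1 to 3. Old PBS 2 and old PBS 4 were the highest libraries, and old PBS 3 lay with the other groups. The log2 fold change was 0.27 ± 0.22 for old PBS against young PBS and -0.51 ± 0.21 for old rMETRNL against old PBS. Counts per gene do not separate the membrane form from the secreted form.

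The ratio of *Flt1* to *Kdr* within a library does not depend on library size. It was 0.771, 1.07 and 0.755 *Flt1* counts per *Kdr* count in young PBS 1 to 3, 1.31, 1.05 and 2.45 in old PBS 2 to 4, and 0.608, 0.666 and 0.958 in old rMETRNL 1 to 3. Every old PBS library was above every old rMETRNL library, and old PBS 3 lay just under young PBS 2. The mean log2 difference was 0.82 for old PBS against young PBS, between 0.46 (without old PBS 4) and 1.07 (without old PBS 3). It was -1.04 for old rMETRNL against old PBS, between -1.30 (without old PBS 3) and -0.69 (without old PBS 4). This ratio was chosen after the values of both genes were seen.

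The angiopoietin receptor genes followed. *Tek* (TIE2, the receptor that binds angiopoietins) was at 35.8, 34.1 and 33.7 CPM in young PBS 1 to 3, at 34.7, 25.5 and 27.9 CPM in old PBS 2 to 4, and at 41.97, 34.9 and 35.01 CPM in old rMETRNL 1 to 3. It varied least of the 10 genes, by 1.65-fold between the lowest and the highest library. The old rMETRNL libraries were all above the old PBS libraries, with old PBS 2 next to old rMETRNL 2. Fitted, the log2 fold change was -0.24 ± 0.16 for old PBS against young PBS and 0.34 ± 0.17 for old rMETRNL against old PBS.

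*Tie1* (the partner receptor of TIE2, with no ligand that it binds strongly by itself) was at 51.7, 46.9 and 54.4 CPM in young PBS 1 to 3, at 38.7, 48.4 and 29.1 CPM in old PBS 2 to 4, and at 65.5, 52.4 and 43.4 CPM in old rMETRNL 1 to 3. Old PBS 4 was the lowest library and old PBS 3 overlapped with both other groups. On the log2 scale the fitted difference was -0.40 ± 0.20 for old PBS against young PBS and 0.47 ± 0.23 for old rMETRNL against old PBS.

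The sequence upstream of the start of the receptor genes was also examined. RefSeq promoter sequences (GRCm38.p6) were matched for 6 of the 10 genes, namely *Kdr*, *Flt1*, *Tek*, *Tie1*, *Emcn* and *Apln*, and not for *Pecam1*, *Cdh5*, *Vwf* and *Aplnr*. The 250 bases before the RefSeq start of the 4 receptor genes are shown 5′ to 3′ on the strand of the gene. They lie at chr5:75978456-75978705 (minus strand) for *Kdr*, chr5:147726012-147726261 (minus) for *Flt1*, chr4:94739039-94739288 (plus) for *Tek* and chr4:118489850-118490099 (minus) for *Tie1*. The start in GENCODE can differ, and that of *Tie1* is at 118490061, inside its window. Most of that window thus lies within the annotated gene. Capitals mark GGAA and its reverse complement TTCC, the core bound by ETS factors, a family with well-known roles in endothelial transcription.
Kdr: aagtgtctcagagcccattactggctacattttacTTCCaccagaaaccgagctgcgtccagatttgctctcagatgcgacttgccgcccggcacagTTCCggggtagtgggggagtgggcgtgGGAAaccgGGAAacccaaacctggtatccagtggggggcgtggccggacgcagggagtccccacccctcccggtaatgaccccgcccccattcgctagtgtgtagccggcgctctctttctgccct
Flt1: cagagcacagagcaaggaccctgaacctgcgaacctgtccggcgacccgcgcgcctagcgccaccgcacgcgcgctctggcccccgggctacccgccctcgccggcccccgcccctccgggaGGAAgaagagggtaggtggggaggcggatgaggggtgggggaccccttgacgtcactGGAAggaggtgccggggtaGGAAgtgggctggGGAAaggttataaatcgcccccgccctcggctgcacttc
Tek: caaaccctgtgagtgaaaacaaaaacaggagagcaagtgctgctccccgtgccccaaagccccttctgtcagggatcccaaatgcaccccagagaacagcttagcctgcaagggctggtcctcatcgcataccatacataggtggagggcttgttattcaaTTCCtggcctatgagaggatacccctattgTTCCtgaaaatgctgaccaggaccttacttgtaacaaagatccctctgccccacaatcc
Tie1: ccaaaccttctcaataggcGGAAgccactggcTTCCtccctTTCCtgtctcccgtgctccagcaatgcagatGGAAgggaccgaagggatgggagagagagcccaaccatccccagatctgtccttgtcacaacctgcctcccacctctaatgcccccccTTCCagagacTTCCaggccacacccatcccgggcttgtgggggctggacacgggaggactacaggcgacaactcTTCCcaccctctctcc
Counted on both strands, the core occurred 4 times in *Kdr*, 4 times in *Flt1*, 2 times in *Tek* and 7 times in *Tie1*, and 4 times in *Emcn* and 3 times in *Apln*. It is common, being present in 93.4% of 32851 promoters of the same length with a median of 3, so its presence does not set these genes apart. The hypoxia response core GCGTG occurred 2 times in *Kdr*, once in *Flt1* and once in *Emcn*, against 28.2% of all promoters, and the related ACGTG was in none of the 6 windows, against 16.6% of all. The SOX core ACAAT occurred 2 times in *Tek* and once in *Emcn*, against 27.7% of all. Whether any of these cores bears on the levels of the genes was not tested.

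*Vwf* (von Willebrand factor, stored by endothelium and by platelets) was at 21.1, 34.3 and 22.8 CPM in young PBS 1 to 3, at 39.6, 31.7 and 27.7 CPM in old PBS 2 to 4, and at 23.3, 23.2 and 30.3 CPM in old rMETRNL 1 to 3. The group mean was highest in old PBS, but young PBS 2 and old rMETRNL 3 lay within its range. The log2 fold change was 0.34 ± 0.23 for old PBS against young PBS, -0.37 ± 0.19 for old rMETRNL against old PBS and -0.03 ± 0.18 for old rMETRNL against young PBS. The summed level of 7 platelet genes overlapped between groups, at 23.3 to 33.8 CPM in young PBS, 18.2 to 32.4 CPM in old PBS and 27.5 to 35.9 CPM in old rMETRNL. The 2 most abundant were *Pf4* (platelet factor 4), with log2 fold changes of -0.34 ± 0.28 for old PBS against young PBS and 0.58 ± 0.26 for old rMETRNL against old PBS, and *Itga2b* (an integrin chain), with -0.47 ± 0.30 and 0.32 ± 0.28. Of the genes of the list tested, only *Clec1b*, at about 1 CPM or less, had fitted values of the opposite sign, 0.59 ± 0.57 and -1.29 ± 0.75. *Gp1bb* had 0 counts in every library.

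The ligand *Apln* was at low levels. It had 144, 130 and 204 counts in young PBS 1 to 3, 83, 245 and 82 counts in old PBS 2 to 4, and 235, 103 and 158 counts in old rMETRNL 1 to 3. These were 8.32, 7.21 and 11.5 CPM, 5.59, 10.7 and 5.16 CPM, and 12.6, 5.82 and 7.15 CPM. The 3 groups overlapped, with 1 high library in each. Fitted, the log2 fold change was -0.33 ± 0.33 for old PBS against young PBS. With each library left out it ran from -0.75 (without old PBS 3) to -0.11 (without young PBS 3). It was 0.24 ± 0.37 for old rMETRNL against old PBS, and ran from -0.15 (without old rMETRNL 1) to 0.66 (without old PBS 3).

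The receptor *Aplnr* (Ensembl ENSMUSG00000044338, chromosome 2, 85136225 to 85139923 on the plus strand of GRCm38) had 1125, 889 and 1171 counts in young PBS 1 to 3. Its counts were 394, 845 and 136 in old PBS 2 to 4, and 1451, 1356 and 1248 counts in old rMETRNL 1 to 3. As levels these were 64.96, 49.3 and 66.0 CPM in young PBS, 26.5, 36.9 and 8.55 CPM in old PBS, and 77.7, 76.7 and 56.4 CPM in old rMETRNL. All 3 old PBS libraries were below all 6 others, and old PBS 4 was the lowest, 9.08-fold below old rMETRNL 1. Between young PBS and old rMETRNL the levels overlapped.

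The log2 fold change of *Aplnr* was -1.32 ± 0.44 for old PBS against young PBS, with values between -1.78 (without old PBS 3) and -0.92 (without old PBS 4) when each library was left out. For old rMETRNL against old PBS it was 1.54 ± 0.43, with values between 1.13 (without old PBS 4) and 2.004 (without old PBS 3). It was 0.22 ± 0.15 for old rMETRNL against young PBS. Ordered by fitted fold change, *Aplnr* stood at place 33 from the highest of 15682 genes in old rMETRNL against old PBS, and at place 15493 of 15560 in old PBS against young PBS. By DESeq2's Wald test, run as an alternative, *Aplnr* was the 1 member past the adjusted threshold in old rMETRNL against old PBS, and none passed in the other comparisons. DESeq2 called 354 genes in old rMETRNL against old PBS, whereas edgeR called 17, and *Aplnr* was not among those 17.

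**Figure D2:**
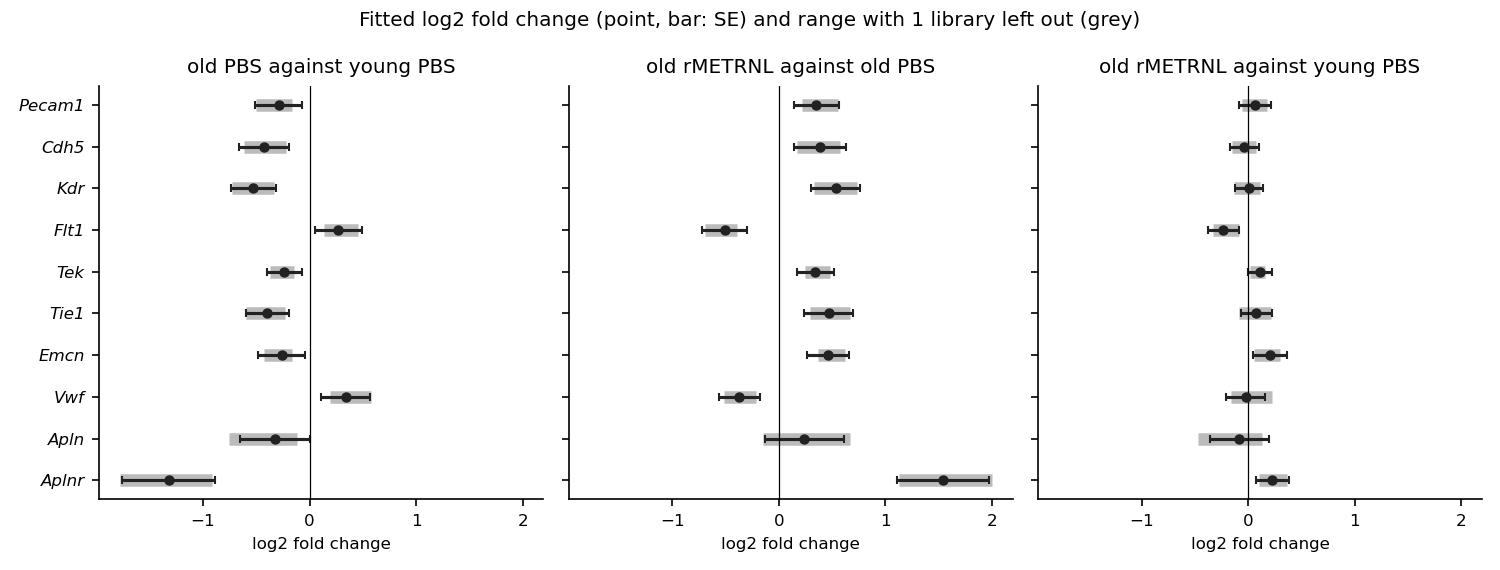
Fitted log2 fold change (horizontal axis) of the 10 genes in the 3 comparisons, with the SE as a bar and the range of values with each library left out in turn in grey. *Aplnr* is farthest from 0 in both comparisons with old PBS (-1.32 and 1.54), where the fitted values of *Flt1* and *Vwf* lie on the other side of 0 from the rest. All 10 fitted values lie between -0.23 and 0.22 in old rMETRNL against young PBS.

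The level of *Aplnr* was next set against the endothelial genes of the same library, which removes library size and any difference shared by all of them. The summed level of 7 genes (*Pecam1*, *Cdh5*, *Kdr*, *Flt1*, *Tek*, *Tie1* and *Emcn*, without *Vwf*) was 434.7 ± 32.1 CPM in young PBS, 355.4 ± 51.9 CPM in old PBS and 437.6 ± 58.2 CPM in old rMETRNL (SD, n = 3 each). *Aplnr* was at 15.1, 12.2 and 14.1% of this sum in young PBS 1 to 3, at 7.09, 9.33 and 2.88% in old PBS 2 to 4, and at 15.5, 18.0 and 14.6% in old rMETRNL 1 to 3. The old PBS libraries were therefore lowest also relative to the endothelial genes, and young PBS and old rMETRNL overlapped.

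The mean log2 difference of this share was -1.25 for old PBS against young PBS, between -1.60 (without old PBS 3) and -0.76 (without old PBS 4). For old rMETRNL against old PBS it was 1.47, between 0.97 (without old PBS 4) and 1.82 (without old PBS 3). With *Cdh5* alone in place of the 7 genes the differences were -1.08 and 1.35. *Apln* gave no such separation, at 2.06 ± 0.354%, 1.98 ± 0.642% and 1.91 ± 0.575% of the sum in young PBS, old PBS and old rMETRNL (SD, n = 3 each). *Aplnr* counts per *Apln* count were 7.81, 6.84 and 5.74 in young PBS 1 to 3, 4.75, 3.45 and 1.66 in old PBS 2 to 4, and 6.17, 13.2 and 7.90 in old rMETRNL 1 to 3. This ratio was thus lowest in the 3 old PBS libraries.

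**Figure D3:**
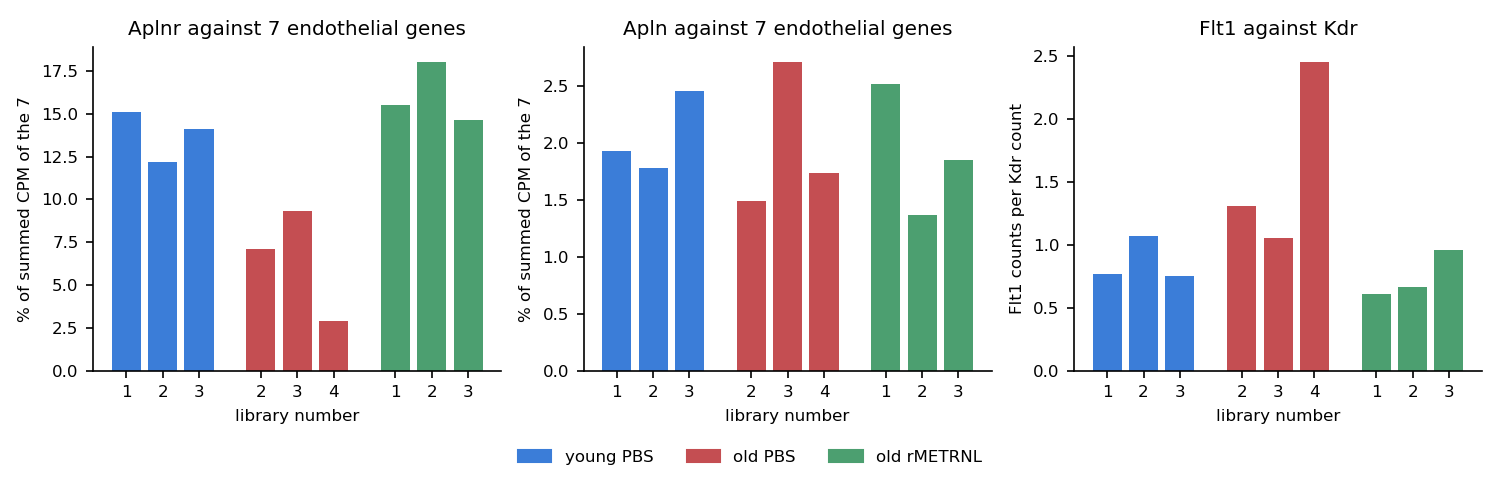
Level of *Aplnr* and of *Apln* as a percentage of the summed CPM of 7 endothelial genes, and *Flt1* counts per *Kdr* count (vertical axes, from 0), with 1 bar per library. *Aplnr* lies at 2.88 to 9.33% in old PBS and at 12.2 to 18.0% in the other libraries, *Apln* overlaps between groups, and the ratio of *Flt1* to *Kdr* is highest, at 2.45, in old PBS 4.

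The shares of the other genes in the same sum show how the endothelial profile was composed. *Pecam1* made up 24.5 ± 2.45, 24.6 ± 3.46 and 25.6 ± 0.618% in young PBS, old PBS and old rMETRNL, and *Cdh5* 30.1 ± 0.538, 26.9 ± 4.14 and 29.1 ± 1.24%. *Flt1* made up 10.6 ± 2.50, 16.04 ± 5.86 and 9.02 ± 2.05%, and in old PBS 4 alone 21.8%. *Vwf*, which is not in the sum, was at 6.08 ± 2.07, 9.31 ± 1.29 and 5.98 ± 1.66% of it (SD, n = 3 each). *Flt1* and *Vwf* thus had their highest mean share in old PBS.

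The separation of the groups was read against all genes tested. In old PBS against young PBS, *Kdr* and *Aplnr* were the 2 members with all old PBS libraries below the young PBS libraries, against 5.25% of 15560 genes, and none had them all above, against 5.26%. Both were also the 2 with an unadjusted p under 0.05. In old rMETRNL against old PBS, *Tek*, *Emcn* and *Aplnr* were the 3 with all libraries higher with rMETRNL, against 6.99% of 15682 genes, and none had them all lower, against 5.69%. Here *Kdr*, *Flt1*, *Emcn* and *Aplnr* were the 4 with an unadjusted p under 0.05. In old rMETRNL against young PBS no member separated the groups, against 3.94% of 15396 genes higher and 2.96% lower.

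The median log2 fold change of the 10 genes was -0.31 for old PBS against young PBS, beside 0.01 over all genes tested. It was 0.37 for old rMETRNL against old PBS, beside -0.01 over all genes, and 0.04 for old rMETRNL against young PBS, beside 0.0009 over all genes. Values above 0 were found for 2, 8 and 6 of the 10, against 52.1, 49.3 and 50.2% of all genes. Since the 10 genes were chosen with these values known, nothing is read from these shares.

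Levels can be compared between genes only per length of transcript. As the mean of all 9 libraries in CPM per kb of annotated exon, the order was *Cdh5* (28.2), *Pecam1* (16.4), *Aplnr* (13.9), *Tie1* (9.73), *Tek* (7.15), *Kdr* (5.29), *Flt1* (3.45), *Apln* (2.61), *Emcn* (2.33) and *Vwf* (1.76). *Cdh5* was above *Pecam1* and *Tek* above *Kdr* in 9 of 9 libraries. *Aplnr* was above *Tie1* in 7 of 9, and its place in the order changed with the group, from the third in young PBS to the fourth in old PBS and the second in old rMETRNL. In old PBS the means of *Flt1* (4.08) and *Kdr* (4.08) were level, and that of *Vwf* (2.05) was above that of *Emcn* (1.95). The neighbours *Flt1* and *Apln* (6 of 9 libraries) and *Apln* and *Emcn* (5 of 9) were not apart beyond their spread. The exon length covers the exons of all annotated transcripts of a gene, such as 16064 bases for *Vwf* and 13504 for *Flt1*, so that a gene with long exons that muscle does not use is placed too low.

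**Figure D4:**
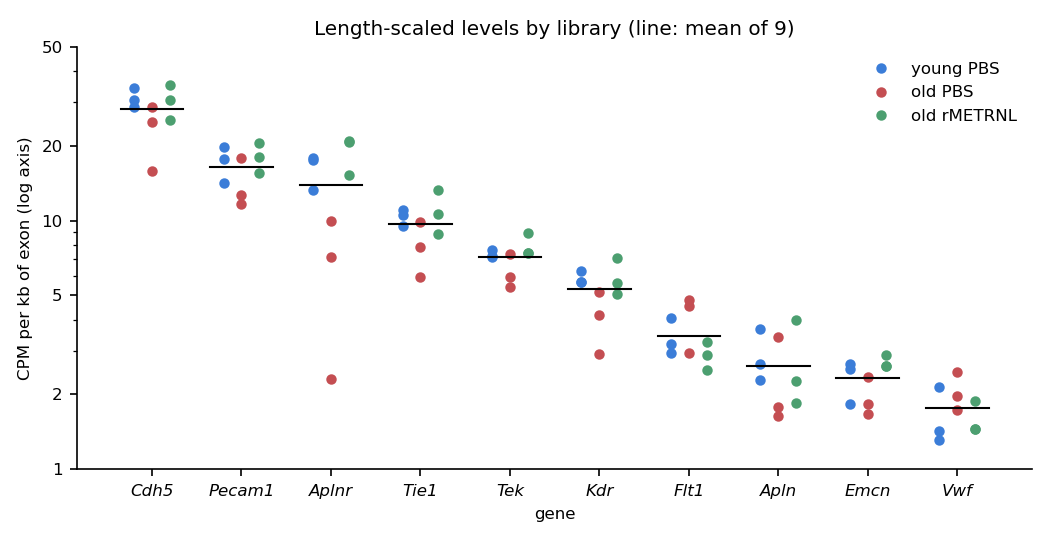
Level in CPM per kb of annotated exon (vertical axis, log scale) of the 10 genes in the order of their mean over 9 libraries (line), with 1 point per library coloured by group. *Cdh5* leads at 28.2 and *Vwf* has the lowest mean at 1.76, and the *Aplnr* points spread from 2.31 to 21.0, wider on this log scale than those of any other gene.

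Across the 9 libraries the levels were compared on the log2 CPM scale, as a description over 9 libraries of 3 groups that share the group differences given above. *Cdh5* and *Tie1* were closest, with Pearson's r = 0.967 and Spearman's rho = 0.983. *Aplnr* had r = 0.936 (rho = 0.883) with *Cdh5*, 0.922 (0.917) with *Tie1* and 0.906 (0.800) with *Kdr*. It had r = 0.563 (0.633) with its ligand *Apln*. *Flt1* ran opposite to *Emcn* (r = -0.903, rho = -0.783), to *Pecam1* (-0.894, -0.850) and to *Aplnr* (-0.811, -0.850), and had r = 0.654 (0.600) with *Vwf*.

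Among 10943 genes with a mean of at least 5 CPM, the 5 genes most like *Aplnr* were *Vcan* (versican, a matrix proteoglycan; r = 0.987, rho = 0.983), *Mpzl1* (0.984, 0.967), *Cdk1* (the kinase of mitotic entry; 0.981, 0.950), *Afap1l1* (0.980, 0.933) and *Pcdh7* (a protocadherin; 0.978, 0.883). *Vcan* was at 55.2, 53.5 and 66.8 CPM in young PBS 1 to 3, at 37.3, 48.8 and 16.7 CPM in old PBS 2 to 4, and at 68.6, 70.7 and 53.96 CPM in old rMETRNL 1 to 3. It shared with *Aplnr* the lowest value in old PBS 4 and the highest values in old rMETRNL 1 and 2. The 5 most like *Apln* were *Prr5* (0.961, 0.933), *Arsg* (0.952, 0.950), *Scpep1* (0.942, 0.933), *Acap3* (0.941, 0.983) and *Smim1* (0.935, 0.917). The 5 most like the mean of the 7 endothelial genes were *Rflnb* (0.987, 0.967), *Lamb1* (a laminin chain; 0.987, 0.983), *Col15a1* (a basement membrane collagen; 0.973, 0.900), *Arap3* (0.972, 0.983) and *Col3a1* (a fibrillar collagen; 0.972, 0.983). The genes nearest to the endothelial mean thus included 3 that encode matrix proteins.

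Other genes were taken from 11 lists of 100 genes in all, of which 10 lists cover endothelium, its ligands and mural cells and 1 the hypoxia response. None of the 95, 94 and 93 genes tested passed in old PBS against young PBS, old rMETRNL against old PBS and old rMETRNL against young PBS by edgeR (lowest adjusted p = 0.305, 0.371 and 0.9996) or by DESeq2. An unadjusted p under 0.05 was reached by 9, 7 and 3 of them, beside 5.91, 8.07 and 2.41% of all genes. The list of 24 other endothelial identity genes had mostly 1 sign in each comparison. In old PBS against young PBS, 23 of 24 were below 0 with a median log2 fold change of -0.34, and in old rMETRNL against old PBS, 21 of 24 were above 0 with a median of 0.32. In old rMETRNL against young PBS, 18 of 24 were below 0 with a median of -0.08. The summed level of the 24 genes was 499.1, 658.8 and 463.0 CPM in old PBS 2 to 4. It was 619.2 to 715.6 CPM in young PBS and 579.2 to 737.8 CPM in old rMETRNL. Old PBS 3 thus lay within the range of both other groups.

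The 2 most abundant of these were *Cd93* (a surface glycoprotein of endothelium and myeloid cells) and *Egfl7* (a protein secreted by endothelium). *Cd93* had log2 fold changes of -0.50 ± 0.33 and 0.49 ± 0.32 in the comparisons of old PBS with young PBS and of old rMETRNL with old PBS, and *Egfl7* of -0.30 ± 0.20 and 0.43 ± 0.21. *Sox18*, a transcription factor of endothelium named here after its values were seen, had the lowest value of the list. It was at 26.8, 19.97 and 21.8 CPM in young PBS 1 to 3, at 10.97, 17.3 and 7.48 CPM in old PBS 2 to 4, and at 25.4, 23.7 and 17.5 CPM in old rMETRNL 1 to 3. All 3 old PBS libraries were below the others, with log2 fold changes of -0.93 ± 0.30 and 0.89 ± 0.30, both short of those of *Aplnr*.

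The lists of ligands and co-receptors had values of both signs. Of 8 VEGF ligands and co-receptors, 4 were above and 4 below 0 in old PBS against young PBS (median -0.12). *Vegfa*, the ligand of KDR and FLT1, had log2 fold changes of 0.07 ± 0.21 and 0.09 ± 0.21 in the comparisons of old PBS with young PBS and of old rMETRNL with old PBS. *Vegfb*, a ligand of FLT1, had 0.38 ± 0.37 and -0.61 ± 0.35. Of 5 genes of the angiopoietin system the medians were -0.18 and -0.07. *Ptprb*, a phosphatase that acts on TIE2, had -0.25 ± 0.23 and 0.20 ± 0.22, and *Svep1*, a matrix protein, had -0.28 ± 0.36 and 0.32 ± 0.37.

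Of 6 genes of the apelin system, *Apela*, the gene of the second ligand of the apelin receptor, had 0 counts in every library, which allows a level of up to 0.131 to 0.202 CPM by counting error alone. *Pcsk3* (furin, a protease that cleaves precursor proteins) had log2 fold changes of -0.14 ± 0.18 and 0.03 ± 0.17, and *Arrb2* (an arrestin that binds activated receptors) of -0.05 ± 0.24 and 0.19 ± 0.24. The 4 genes of the list tested in old rMETRNL against old PBS ran from 0.03 to 0.19, while *Aplnr* itself was at 1.54.

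Lists by vessel type gave medians of mixed sign. In old PBS against young PBS the median log2 fold change was -0.25 for 8 tip cell genes tested, -0.38 for 6 arterial, 0.31 for 6 venous, -0.06 for 8 capillary, -0.20 for 5 lymphatic and -0.12 for 10 mural cell genes. In old rMETRNL against old PBS the medians were 0.31 for 8 tip cell, 0.23 for 5 arterial, -0.06 for 6 venous, 0.05 for 8 capillary, 0.43 for 5 lymphatic and 0.27 for 11 mural cell genes. The most abundant genes of the lists are given in the same order of comparisons. *Plxnd1* (a semaphorin receptor) was at -0.31 ± 0.28 and 0.38 ± 0.29, and *Mcam* (CD146) at -0.38 ± 0.26 and 0.37 ± 0.26. Both tip cell genes thus had the sign of *Kdr*.

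*Gja4* (connexin 37 of arterial endothelium) was at -0.94 ± 0.24 and 0.79 ± 0.26, with all old PBS libraries below those of both other groups, whereas *Sema3g* was at 0.03 ± 0.22 and -0.48 ± 0.24. Among venous genes *Ephb4* (the receptor of ephrin-B2) was at -0.54 ± 0.22 and 0.50 ± 0.22, and *Lrg1* was opposite at 0.72 ± 0.36 and -0.60 ± 0.30. Among capillary genes *Cav1* (caveolin 1) was at -0.29 ± 0.19 and 0.39 ± 0.19, and *Aqp1* (a water channel) at 0.17 ± 0.31 and -0.29 ± 0.31. The 2 genes of each of these lists thus had fitted values of unlike sign in old rMETRNL against old PBS.

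Lymphatic *Pdpn* was at -0.12 ± 0.18 and 0.43 ± 0.21, and *Lyve1* at 0.28 ± 0.43 and -0.03 ± 0.37. The mural genes *Rgs5*, of pericytes, and *Acta2*, of smooth muscle, were at -0.05 ± 0.22 and 0.08 ± 0.23, and at -0.11 ± 0.39 and 0.07 ± 0.39, values near 0. Of 10 hypoxia response genes the medians were 0.06 and -0.10. *Bnip3*, a mitophagy gene, was at 0.56 ± 0.33 and -0.75 ± 0.35, and *Ldha*, of lactate production, at -0.02 ± 0.31 and -0.13 ± 0.30.

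**Figure D5:**
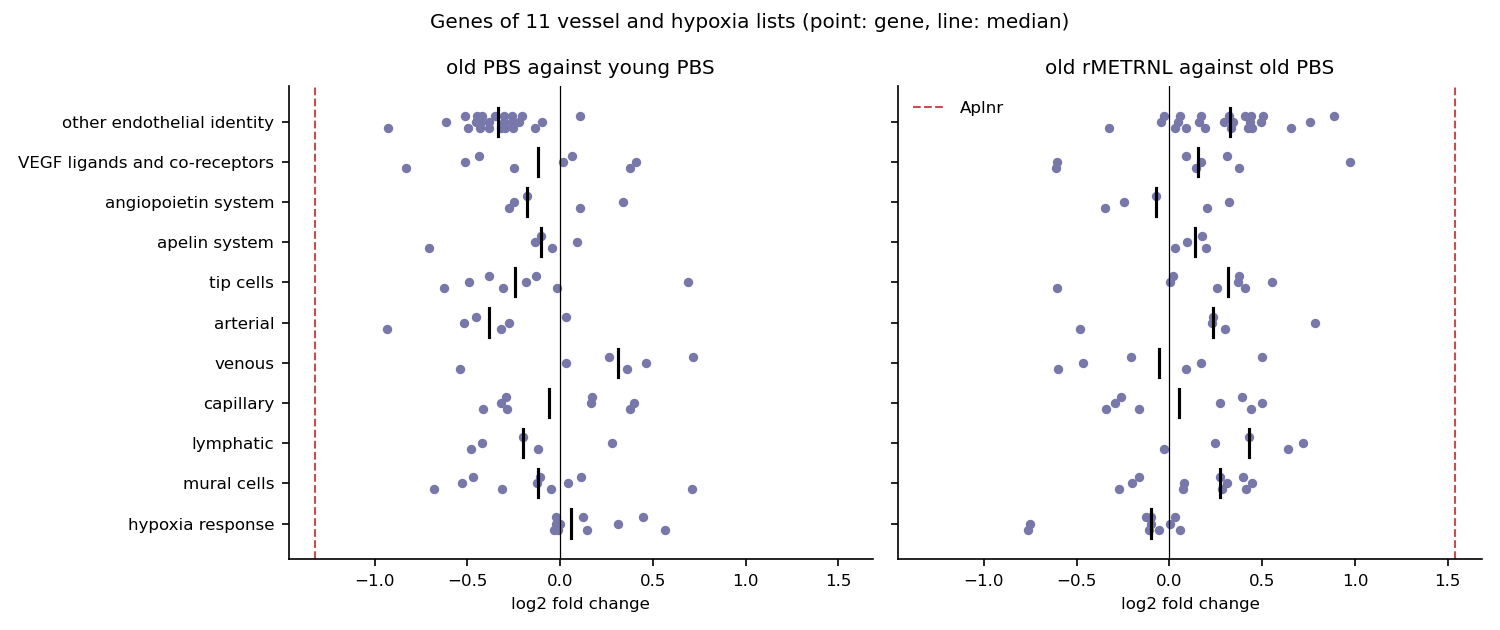
Fitted log2 fold change (horizontal axis) of each tested gene of 11 vessel and hypoxia lists in both comparisons with old PBS, as 1 point per gene with the median of the list as a line, and *Aplnr* as a dashed line. No point lies beyond *Aplnr* at -1.32 and 1.54, and the endothelial identity genes lie mostly left of 0 in old PBS against young PBS (23 of 24) and right of 0 in old rMETRNL against old PBS (21 of 24).

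Markers of other cells also differed between the libraries. The summed level of 6 macrophage genes was 1522 to 1788 CPM in young PBS, 1124 to 1555 CPM in old PBS and 1664 to 1945 CPM in old rMETRNL, and all 6 genes were below 0 in old PBS against young PBS and above 0 in old rMETRNL against old PBS. The sum of 6 genes of fibro-adipogenic progenitors was 1008 to 1289, 938.8 to 1466 and 1182 to 1696 CPM, and that of 5 myogenic genes 134.03 to 149.2, 65.7 to 217.7 and 124.2 to 188.4 CPM. In both, the old PBS libraries had the widest range. Of the 6 progenitor genes, 3 were above and 3 below 0 in old PBS against young PBS (median log2 fold change -0.10). All 6 were above 0 in old rMETRNL against old PBS (median 0.36) and in old rMETRNL against young PBS (median 0.22).

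The red cell genes *Hbb-bs* and *Hba-a1* (hemoglobin chains) and *Alas2* (an enzyme of heme synthesis) summed to 46.3 to 171.1 CPM in young PBS, 115.7 to 891.1 CPM in old PBS and 54.4 to 734.8 CPM in old rMETRNL, with the highest value in old PBS 4, the library lowest in *Aplnr*, and the second highest in old rMETRNL 2, the library second highest in *Aplnr*. The sum of 6 genes induced by tissue dissociation was 142.4 to 158.7, 152.6 to 221.5 and 127.1 to 156.2 CPM. The part of these cells in the values of the 10 genes was not tested.

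Because of the brain and liver transcripts in old PBS, genes of the endothelium of those organs were examined. The sum of 5 brain endothelium genes was 17.7 to 29.1 CPM in young PBS, 24.5 to 38.02 CPM in old PBS and 18.3 to 20.3 CPM in old rMETRNL. Of these, *Slco1c1*, a transporter of brain capillaries named here after its values were seen, was at 0.269, 1.223 and 1.19 CPM in old PBS 2 to 4 and at most 0.115 CPM elsewhere. *Slc22a8* was at 0.067 to 0.131 CPM in old PBS and at 0 elsewhere, whereas *Mfsd2a* overlapped, at 0.189 to 0.524 CPM in old PBS and 0.055 to 0.733 CPM in young PBS. Most of the sum was *Abcb1a*, an efflux pump, and *Spock2*. *Abcb1a* had log2 fold changes of 0.09 in old PBS against young PBS and -0.25 ± 0.18 in old rMETRNL against old PBS. *Spock2* had 0.93 and -1.23 ± 0.37 in the same order.

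The sum of 3 liver sinusoid endothelium genes was 4.10 to 5.05 CPM in young PBS, 5.68 to 12.1 CPM in old PBS and 2.54 to 5.79 CPM in old rMETRNL, most of it *Stab2*. *Clec4g* was at most at 0.404 CPM in any library. *Oit3*, also at few counts, did not share the higher level of *Stab2* in old PBS. It was at 0.067 to 0.126 CPM in old PBS, 0.058 to 0.226 CPM in young PBS and 0.214 to 0.283 CPM in old rMETRNL. Of the brain genes, *Mobp*, *Gfap* and *Slc1a2* passed in old PBS against young PBS and, with *Snap25*, in old rMETRNL against old PBS, where the liver gene *Apoa1* also passed (edgeR, adjusted threshold 0.05). *Mobp* and *Snap25* had 0 counts in all 6 libraries outside old PBS. Endothelial transcripts of muscle and of other organs cannot be told apart by the 10 genes, and old PBS, the group with these transcripts, had the lowest means of *Aplnr* and of 6 of the 8 endothelial genes and the highest of *Flt1* and *Vwf*.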

How the data were processed

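RNA was sequenced in 9 libraries (3 groups of 3), prepared, per the labels, with the NEBNext Ultra RNA kit; reads were paired-end. The authors deposited raw counts per Ensembl gene, not normalized. Per the labels the submitters' processing notes name STAR, featureCounts and mm9. Versions, annotation and strand setting are not given in the sources used here, so antisense reads cannot be told apart. Of 54532 identifiers, 54409 matched GENCODE vM21 (GRCm38), which gave symbols, coordinates and exon lengths. No column was left out.

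Genes were kept by filterByExpr, counts normalized by TMM, and pairs of groups compared on their 6 libraries with edgeR 4.0.16 (R 4.3.3; glmQLFit, glmQLFTest, Benjamini-Hochberg, threshold 0.05). The SE of a log2 fold change is its size over the square root of F. Alternatives were DESeq2 1.42.0 (size factors, Wald test), no filter, at least 10 counts in every library, all 9 libraries in one fit, a replicate block and each library left out. Both tests were tried on counts simulated from old rMETRNL against young PBS, with 200 of 15396 genes changed by 2 on the log2 scale. There edgeR called 203 genes, of which 14 were unchanged, and DESeq2 called 209, of which 25 were unchanged. No comparison with old PBS was simulated.

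Named genes were the 10 members, list genes that passed the threshold or otherwise the 2 of highest mean TPM per list (for other cell types and tissues also the summed level), and the 5 genes of highest Pearson correlation (log2 of CPM plus 0.5) with *Aplnr*, *Apln* and the mean of 7 members. The members and lists were chosen with earlier results of these data known. The study gives 3 per group and does not say whether each library is 1 mouse, so p-values measure only the spread between these libraries, which may be technical. Of 167 list genes 166 were matched. Same-numbered libraries were not paired by the labels. Floors cover counting error only. One list gene is not reported here.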

Additional observations from a re-analysis of the deposited data

How the results depend on the processing

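Of 360 fitted log2 fold changes of the 10 genes under the alternatives, 359 differed from the main value by less than the replicate spread, 343 kept their sign and 17 changed sign. The 1 beyond the spread was *Tie1* in old rMETRNL against old PBS, at 0.13 with the replicate block. Against old PBS, a library whose number is missing from the other group added nothing to the difference fitted under this block. The block there thus compared only same-numbered libraries, and a shift under it cannot be told from leaving out the unmatched library of each group. The labels do not pair same-numbered libraries. Correlations of the deviations of same-numbered pairs ran from -0.38 to 0.48, and 2 of 7 were over 0.1. With so few pairs these values cannot settle whether libraries were paired. The replicate block, resting on the same-numbered libraries alone, gave 65 genes past the threshold in old rMETRNL against old PBS. The main fit on all libraries of both groups gave 17. The block changed no call of a member.

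The counts of genes past the threshold also depended on the processing. For old PBS against young PBS the count of 10 became 354 with no filter on low counts, 3 with at least 10 counts in every library, 265 by DESeq2 and 63 with all 9 libraries in one fit, and 2 to 401 with each library left out, the highest without old PBS 3. For old rMETRNL against old PBS the count of 17 became 740, 1, 354 and 71 under the same settings, and 3 to 1560 with each library left out, again highest without old PBS 3 (604 higher and 956 lower, against 0 and 17). For old rMETRNL against young PBS the count of 0 became 132 without a filter and 0 to 1 with each library left out. The causes were not tested.

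Of the members, *Aplnr* passed without a filter in both comparisons with old PBS (1 gene each) and by DESeq2 in old rMETRNL against old PBS (1), and *Flt1* and *Aplnr* passed there without old PBS 3, so that the range with each library left out was 0 to 2. Of the 11 vessel and hypoxia lists, 2 genes (*Egln3* and *Sox18*) passed there without a filter. With each library left out, 0 to 2 passed in old PBS against young PBS (*Pdgfb* and *Sox18*, without old PBS 3), and 0 to 11 in old rMETRNL against old PBS (*Bnip3*, *Clec14a*, *Cxcr4*, *Egln3*, *Ephb4*, *Myct1*, *Notch3*, *Prox1*, *Sox18*, *Vcam1* and *Vegfb*, without old PBS 3). The within-library shares of *Aplnr* do not depend on normalization, and every old PBS share was below all the others. Their direction against old PBS could therefore not change under these alternatives, which are no check on it. The SE of the members ran from 0.11 to 0.44 on the log2 scale.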
